A study of Mus musculus with 4 samples.

Results

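Lymphatic endothelial cells (LECs) line the vessels that drain fluid and immune cells from a tissue. Their identity rests on the transcription factor Prox1, and they grow and survive on VEGF-C and VEGF-D, which act through the receptor Flt4 (VEGFR3) and its co-receptor Nrp2. In the lung, lymphatics run along airways, larger vessels and septa, where LECs release the chemokine Ccl21, which guides dendritic cells and T cells towards draining lymph nodes.

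LEC nuclei were chosen here by their own measured RNA. A barcode of the droplet libraries was taken when it held 1500 or more UMIs (unique molecular identifiers, 1 per captured RNA molecule), at most 1 UMI of the leukocyte gene Ptprc, and 4 or more UMIs from at least 3 of the 6 genes Prox1, Mmrn1, Reln, Flt4, Lyve1 and Ccl21a. The rule found 438 of the 134745 barcodes with 1500 or more UMIs. The levels of these 6 genes and of Ptprc are therefore a description and were not tested.

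The study isolated nuclei from whole lungs of 2 wild-type (WT) mice and 2 VEcad-TRF2DN-Tg (Tg) mice, all C57/BL6J and 8-9 weeks old. Tg mice express TRF2, a protein that caps telomeres, in a dominant-negative version driven by the vascular endothelial cadherin (VEcad, Cdh5) promoter, which is meant to make endothelial cells (ECs) senescent, and the comparison asks what this does to lung cells. Per the study's text the mice were male, and the lungs sequenced came from mice of both genotypes kept in 10% oxygen for 3 weeks, so that no normoxic group is compared here. Labels give separate replicates but do not say more of how the mice were matched, and every p-value measures the spread between these mice.

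WT mouse 1 gave 68 LEC nuclei, WT mouse 2 gave 50, Tg mouse 1 gave 193 and Tg mouse 2 gave 127. Their summed UMIs, in the same order, were 279142, 214669, 683598 and 556051. The LEC nuclei of Tg mouse 1 were the shallowest, with a median of 2749 UMIs against 3405.5 in WT mouse 1, 3701 in WT mouse 2 and 3415 in Tg mouse 2. Levels are given below as CPM, the UMIs of a gene per 1000000 UMIs of the summed class, and always in the order WT mouse 1, WT mouse 2, Tg mouse 1, Tg mouse 2. Capture was at the 3′ end, so that CPM compares a gene between samples and not between genes.

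Blood ECs, used for comparison, were the barcodes outside the LEC rule with the same UMI and Ptprc limits and 4 or more UMIs from at least 3 of Ptprb, Flt1, Emcn, Kdr, Tek and Cyyr1. There were 1141, 728, 1897 and 2057 of them, with median UMIs of 2554, 2645, 2744 and 3106. A second reference was the pool of barcodes ranked 45000 to 90000 by UMIs in each library. It is taken as free RNA of the lysed tissue and is called droplets without a nucleus here. Its barcodes reached 1178, 1296, 988 and 1474 UMIs, so that some may hold a nucleus, to an extent that was not tested. No cell caller was applied, and barcodes past 1500 UMIs may hold no nucleus.

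Free RNA differed between genotypes and reached the LEC sums. The summed level of 8 genes of secretory epithelium (Scgb1a1, Sftpc and others), which LECs do not make, was 8021, 9107, 41018 and 19522 CPM in LECs. In the droplets without a nucleus it was 19754 to 19949 CPM in WT mice and 55206 to 147790 CPM in Tg mice. Taken as a scale, these 8 genes put the free RNA in LEC sums at 40.2%, 46.1%, 27.8% and 35.4%. The same scale gave 51.6%, 54.6%, 33.6% and 41.8% in blood EC sums, more than in LECs of every mouse. Of the 8 genes, 6 were lower in LECs than in blood ECs in all 4 mice. The part of free RNA in the list counts below blood ECs, given further on, was not tested. All 438 members also met the corresponding marker rule of at least 1 other class of cells, which for club cells was met by 66 of 68, 48 of 50, 193 of 193 and 127 of 127 members. Markers of mural cells were lowest, at 32.6 to 64.4 CPM in LECs, and those of ciliated cells ran from 144 to 1167 CPM, highest in Tg mouse 1. Pairs of libraries shared 176 to 475 barcode sequences among those past 1500 UMIs.

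Reln encodes a large secreted glycoprotein. Reln stood at 1809, 1337, 1037 and 1058 CPM in LECs and at 8.34 to 20.8 CPM in blood ECs. Prox1 stood at 699, 568, 449 and 496 CPM in LECs and at 5.69 to 11.96 CPM in blood ECs. Both genes were higher in each WT mouse than in each Tg mouse, which is given as a level only.

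Prox1 had at least 1 UMI in 82.4% of LEC nuclei of WT mouse 1, in 82.0% of WT mouse 2, in 69.4% of Tg mouse 1 and in 77.2% of Tg mouse 2. In blood ECs, which lack it, the share was 1.74% to 3.71%. Thinned to 1500 UMIs per nucleus, the LEC shares for Prox1 were 51.5%, 58.0%, 50.8% and 52.8%. These shares are values that the rule used, and the nuclei were chosen at full depth. No LEC nucleus of the WT mice lacked both Prox1 and Mmrn1, while 11 nuclei of Tg mouse 1 and 3 of Tg mouse 2 did.

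Mmrn1, a multimerin deposited in the extracellular matrix, stood at 863, 517, 590 and 432 CPM in LECs against 7.84 to 11.3 CPM in blood ECs. Flt4 was the steadiest of the 6, at 365, 349, 351 and 352 CPM against 12.02 to 17.4 CPM. Lyve1, a hyaluronan receptor of initial lymphatics that some macrophages also carry, was much less specific. Lyve1 stood at 43.0, 51.2, 58.5 and 54.0 CPM in LECs against 10.2, 33.8, 47.4 and 17.1 CPM in blood ECs, and 14.7% to 18.0% of LEC nuclei held a UMI.

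Ccl21a, like Lyve1, lay higher in LECs of both Tg mice than of both WT mice, by a wider margin. Ccl21a stood at 68.1, 112, 304 and 209 CPM in LECs. Droplets without a nucleus gave the same order of mice, at 13.5, 24.9, 58.5 and 32.4 CPM, as did blood ECs, at 6.53, 10.6, 27.2 and 17.3 CPM. Shares of LEC nuclei with a Ccl21a UMI were 22.1%, 36.0%, 64.2% and 48.0%, and 11.8%, 20%, 40.9% and 30.7% after thinning to 1500 UMIs. Because Ccl21a took part in choosing the nuclei, no test was made of this difference.

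The mouse genome holds near-identical copies of this chemokine gene, which matters for how its UMIs can be assigned. All Ccl21 UMIs of LECs, which were 19, 24, 208 and 116, were assigned to a single identifier, ENSMUSG00000094686, Ccl21a at chr4:42772860-42773993 on the minus strand (GRCm38). Identifiers of Ccl21b, Ccl21c and a second Ccl21a held 0 UMIs in every library. The coding sequence of Ccl21b at chr4:42255767-42256432, on the plus strand, has 402 bases, of which 400 are identical in the Ccl21a transcript (99.5%). The differences are T84A and C194T, written as the Ccl21a base, the position counted from 1 at the first coding base, and the Ccl21b base. A read outside those positions cannot be told apart by sequence where the copies share it. The stretch around the first difference, coding bases 54 to 113, is shown with the differing base in capitals.
Ccl21a: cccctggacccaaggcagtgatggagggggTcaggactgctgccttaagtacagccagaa
Ccl21b: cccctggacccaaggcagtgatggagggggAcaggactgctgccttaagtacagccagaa

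**Figure D1:**
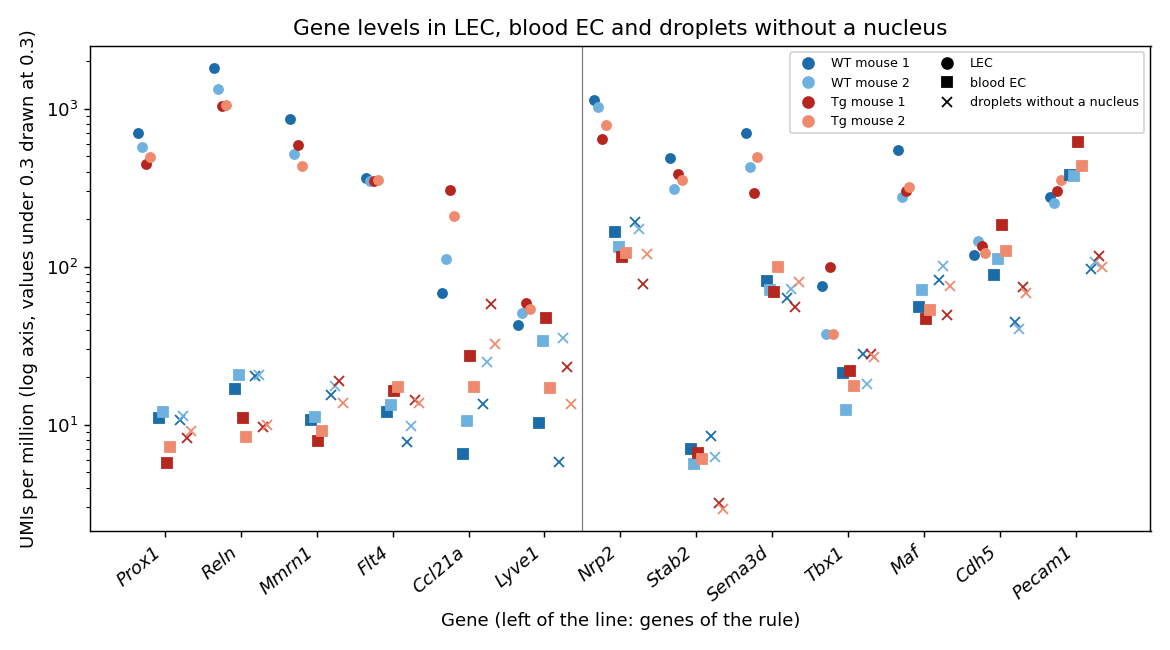
CPM (log axis) of 13 genes in each mouse, in LECs (circles), blood ECs (squares) and droplets without a nucleus (crosses), with the 6 genes of the rule left of the line. Prox1, Reln, Mmrn1 and Flt4 lie above 300 CPM in LECs of every mouse and below 30 in both references, whereas Lyve1 lies at 43.0 to 58.5 in LECs and up to 47.4 in blood ECs.

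Near the limits of the rule, 6, 5, 25 and 13 members held exactly 4 marker UMIs. Just outside, 8, 23, 22 and 15 barcodes held 3 UMIs from 3 of the markers. Nrp2, which the rule did not use, stood at 1079, 355, 713 and 429 CPM in the former and at 488, 96.1, 341 and 110 CPM in the latter. Terms other than Ptprc were also met by 15, 21, 24 and 34 barcodes with exactly 2 Ptprc UMIs.

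Genes outside the rule were then compared between LECs and blood ECs. Among 12346 genes with at least 10 LEC UMIs over all mice, 74 (0.599%) were at least 4-fold higher in LECs than in blood ECs in all 4 mice, on CPM with 1 added, and 3 (0.0243%) were at least 4-fold lower. Any excess in LECs in all 4 mice was found for 1476 genes (12%) and any deficit for 1711 (13.9%). Genes nearly absent from LECs are left out by the limit of 10 LEC UMIs, so that these counts do not compare the number of genes higher and lower. The ratios describe a split that the rule itself made, and they carry no test.

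Stab2 encodes a scavenger receptor of sinusoidal and lymphatic endothelium that takes up hyaluronan. It stood at 491, 312, 386 and 352 CPM in LECs and at 5.63 to 7.05 CPM in blood ECs, a mean 52.1-fold excess (5.70 ± 0.16 on the log2 scale, SD, n = 4 mice). Stab2 had a UMI in 61.8%, 42.0%, 43.5% and 54.3% of LEC nuclei and in 1.37% to 1.93% of blood EC nuclei. The LEC values of the WT and Tg mice overlapped.

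Among genes outside both rules with 10 or more LEC UMIs in every mouse, the largest mean excess was that of D5Ertd615e, a long noncoding RNA, at 871, 620, 361 and 397 CPM in LECs against 4.87 to 11.8 CPM in blood ECs, or 70.8-fold. Apba2, an adaptor protein of membrane traffic best known from neurons, stood at 301, 224, 272 and 281 CPM against 3.46 to 4.44 CPM, or 56.4-fold. Pld5, a member of the phospholipase D family, stood at 262, 275, 212 and 259 CPM against 3.07 to 8.88 CPM, or 45.8-fold. All 3 genes stood at or below 8.50 CPM in the droplets without a nucleus.

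F8, which encodes coagulation factor VIII, stood at 229, 219, 120 and 103 CPM in LECs and at 6.41 to 9.14 CPM in blood ECs, or 18.0-fold. Fgf12, an intracellular member of the FGF family that binds sodium channels, was 27.6-fold higher in LECs. Nr5a2, a nuclear receptor known from liver and ovary, was 25.7-fold higher, and Adam12, a membrane metalloprotease, 22.8-fold. Rspo3, a secreted enhancer of Wnt signaling, was 13.5-fold higher, at 78.8, 107, 57.1 and 48.6 CPM. The glutamate receptor subunit Gria2 was the most uneven of the 19 highest genes between mice, with log2 ratios from 2.55 in WT mouse 2 to 5.92 in WT mouse 1. The others of the 19 were Gm29904, Sh3gl3, A830019P07Rik, Klhl4, Nav3, Emid1, Cacna2d3, Pcsk6 and Rgs7bp, with mean excesses of 13.7-fold to 41.9-fold.

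Genes with the largest deficit included the noradrenaline transporter Slc6a2, at 7.16, 0, 30.7 and 1.80 CPM in LECs against 38.3 to 92.5 CPM in blood ECs. The natriuretic peptide clearance receptor Npr3 stood at 0 to 7.31 CPM against 22.5 to 57.0 CPM. Tspan7, a tetraspanin, stood at 57.3, 18.6, 98.0 and 80.9 CPM in LECs and at 365, 361, 434 and 339 CPM in blood ECs. In the droplets without a nucleus Tspan7 stood at 61.2 to 72.7 CPM. The antisense RNA 1700020G17Rik had 0 UMIs in LECs of every mouse, which allows up to 1.73 CPM over the 4 sums (3 UMIs, counting error only), and stood at 4.36 to 20.4 CPM in blood ECs. The remaining genes of the 10 lowest were 2610203C22Rik, Glp1r, Kank4, Fmo1, Fam107a and Mpped2.

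**Figure D2:**
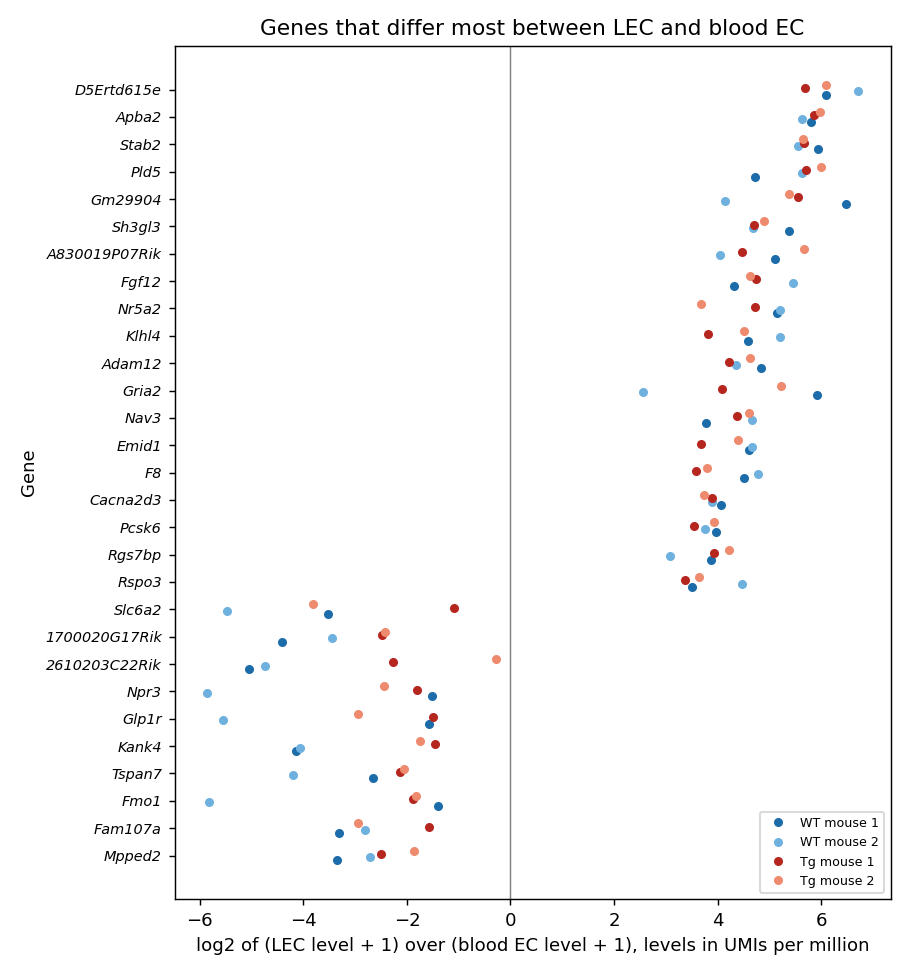
Log2 ratio of the LEC to the blood EC level (each with 1 CPM added) in each mouse, for the 19 genes with the highest and the 10 with the lowest mean ratio outside the genes of both rules. The upper 19 lie above 2.5 in every mouse, and the lower 10 lie below 0 in every mouse with a wider spread, as for 2610203C22Rik, at -5.05 in WT mouse 1 and -0.28 in Tg mouse 2.

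Of 16 transcription factors on a list of LEC regulators with at least 10 LEC UMIs, 9 were above blood ECs in all 4 mice and 2 below, against 12% and 13.9% of all genes. Maf, a factor of the basic leucine zipper family, stood at 545, 275, 301 and 318 CPM against 46.6 to 71.1 CPM in blood ECs. Nr2f2 (COUP-TFII), the venous factor that partners Prox1, stood at 222, 219, 200 and 210 CPM against 61.2 to 80.9 CPM. Tbx1, needed for lymphatic growth, stood at 75.2, 37.3, 99.5 and 37.8 CPM against 12.3 to 21.8 CPM. Gata2 and Foxc2, factors of lymphatic valves, were scarce: Gata2 stood at 11.7 to 21.6 CPM, below blood ECs in all 4 mice, and Foxc2 had 1, 1, 2 and 1 UMIs.

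Among genes of VEGF-C and angiopoietin signaling, 2 of 10 were above and 2 below blood ECs in all 4 mice, against 12% and 13.9% of all genes. Nrp2 stood at 1128, 1030, 644 and 788 CPM in LECs and at 116 to 167 CPM in blood ECs, a mean 6.53-fold excess. Angpt2, a ligand of Tie2 (Tek), stood at 100, 32.6, 76.1 and 52.2 CPM against 2.46 to 11.5 CPM, a 10.7-fold excess. Vegfc, the growth factor itself, was lower in LECs, at 57.3, 46.6, 79.0 and 52.2 CPM against 316, 236, 255 and 200 CPM, a 4.25-fold deficit. Tek, one of the markers that chose blood ECs, stood at 161, 83.9, 127 and 128 CPM in LECs.

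The immune and leukocyte traffic list held 8 of 21 genes above blood ECs in all 4 mice and 9 below, against 12% above and 13.9% below of all genes. Stab1, a relative of Stab2, stood at 133, 121, 225 and 153 CPM in LECs and at 14.4 to 29.98 CPM in blood ECs. Il7, which sustains lymphocytes, stood at 43.0, 32.6, 49.7 and 34.2 CPM against 9.14 to 13.3 CPM. Cxcl12, a chemokine of blood vessel endothelium, was lower in LECs, at 10.7, 14.0, 54.1 and 28.8 CPM against 42.6 to 136 CPM. Vcam1, an adhesion molecule for leukocytes, stood at 4.39 to 14.3 CPM against 14.1 to 35.1 CPM.

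Axon guidance and matrix genes had 10 of 24 members above blood ECs in all 4 mice and 3 below, against 12% above and 13.9% below of all genes. Lama4, a laminin chain of vessel basement membrane, stood at 1050, 685, 572 and 665 CPM in LECs against 67.2 to 119 CPM. Sema3d stood at 702, 429, 291 and 493 CPM against 68.7 to 99.4 CPM, and the netrin receptor gene Unc5b at 129, 107, 99.5 and 101 CPM against 7.74 to 13.3 CPM. Sema6a, a membrane semaphorin, stood at 1290, 964, 848 and 955 CPM, with 324 to 383 CPM in blood ECs.

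Of 12 junction genes 2 were above and 6 below blood ECs in all 4 mice, and of 17 valve and flow genes 3 were above and 5 below, where all genes gave 12% above and 13.9% below. Jam3 stood at 50.2, 51.2, 30.7 and 50.4 CPM in LECs against 5.63 to 10.97 CPM in blood ECs, while its relative Jam2 was lower in LECs, at 9.32 to 30.7 CPM against 61.2 to 98.5 CPM. Gja1 (connexin 43) stood at 140, 233, 139 and 183 CPM against 38.1 to 51.6 CPM. Itga9, the integrin chain of lymphatic valves, stood at 917, 918, 671 and 867 CPM against 342 to 464 CPM. Cdh5, whose promoter drives the transgene, stood at 118, 144, 135 and 122 CPM in LECs and at 89.1 to 183 CPM in blood ECs. LECs lay above blood ECs in both WT mice and below them in both Tg mice, narrowly in Tg mouse 2.

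How many LECs were found per library was compared next. LECs made up 0.252% (95% confidence interval 0.196 to 0.320), 0.130% (0.0963 to 0.171), 0.764% (0.660 to 0.879) and 0.289% (0.241 to 0.343) of barcodes with 1500 or more UMIs. Intervals are exact binomial (Clopper-Pearson) and cover counting error only. Both Tg values lay above both WT values, with means of 0.191 ± 0.0868% in WT and 0.526 ± 0.336% in Tg mice (SD, n = 2), and the exact two-sided permutation test gave p = 0.33, the smallest it can give with 2 mice per group. Tg mouse 1 set most of the difference, which fell from 0.335 to 0.0975 percentage points without it. At a minimum of 2500 UMIs the groups overlapped, at 0.672% and 0.343% in WT and 0.926% and 0.398% in Tg mice (difference 0.154, exact p = 0.67), and with each barcode thinned to 1500 UMIs the difference was 0.176. The Ptprc limit left out 25, 67, 60 and 96 barcodes that met the other terms, against 68, 50, 193 and 127 kept. Among barcodes with at most 1 Ptprc UMI, LECs made up 0.323%, 0.237%, 0.953% and 0.455%. How far this limit changed the number of LECs found was not tested.

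As a share of LECs plus blood ECs, LECs made up 5.62% (4.39 to 7.08), 6.43% (4.81 to 8.39), 9.23% (8.03 to 10.6) and 5.82% (4.87 to 6.88). The groups overlapped, with means of 6.03 ± 0.567% in WT and 7.52 ± 2.42% in Tg mice (exact two-sided permutation test, p = 0.67). Without Tg mouse 1 the difference of 1.499 percentage points changed sign, to -0.211. Median UMIs of all barcodes past the minimum also differed, at 1860 and 1961 in WT and 2512 and 2530 in Tg mice, and the part of depth and free RNA in these shares was not tested beyond the alternatives given.

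**Figure D3:**
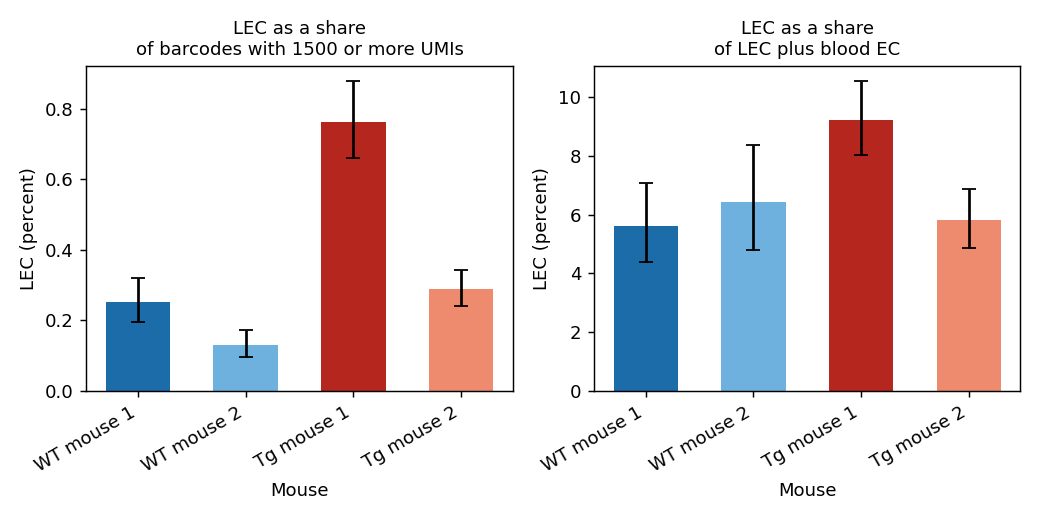
LECs as a percent of barcodes with 1500 or more UMIs (left) and of LECs plus blood ECs (right), 1 bar per mouse with exact 95% binomial intervals. Left, Tg mouse 1 stands at 0.764% and the other 3 mice between 0.130% and 0.289%, and right, Tg mouse 1 stands at 9.23% and the others between 5.62% and 6.43%.

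The genotype comparison asked which genes of LECs differed between Tg and WT mice. The transgene itself is not among the counted genes, and the endogenous Terf2 stood at 75.2, 60.6, 51.2 and 55.8 CPM in LECs (log2 change -0.29, SE 0.35, adjusted p = 0.71). With edgeR's quasi-likelihood test on the UMIs summed per mouse, 315 of 7451 genes tested (4.23%) passed an adjusted p of 0.05. Of these, 285 (3.82%) were higher and 30 (0.403%) lower in Tg mice. None of the 315 overlapped between the groups in CPM, which was also true of 3777 of the 7451 genes tested (50.7%).

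For most of the genes called, the droplets without a nucleus held as much as LECs or more in at least 1 mouse. For 22 of the 315 the level in LECs exceeded that of the droplets without a nucleus in all 4 mice, 11 higher and 11 lower in Tg mice, out of 2073 tested genes of that kind (27.8% of those tested). That is 1.06% of them. After the profile of the droplets was subtracted from the sums, 4 of 5330 genes passed, all higher in Tg mice, of which 3 were among the 315. Some log2 changes that no longer passed after subtraction were of like size, as for Lrrc4 (2.42 before, 2.51 after), Taco1 (-1.78, -1.93) and Iigp1 (-2.03, -2.12). That of Aqp1 went from 1.59 to 1.02. Those of Hes1, Sftpa1 and Sftpc became larger, but levels were not allowed to become negative, and Sftpc helped set the scale. Their size after subtraction therefore cannot be read as a stronger change. Of the 8 genes of secretory epithelium 5 rose, among them Sftpc, which encodes surfactant protein C, at 412, 936, 5221 and 4181 CPM in LECs and 1027, 2156, 14966 and 11174 CPM in the droplets (log2 change in LECs 2.90, SE 0.36, edgeR adjusted p = 0.0016).

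A further pair of groups of abundant RNAs, chosen after their values were seen, was higher in Tg mice in LECs and in the droplets. Of 83 genes of cytosolic ribosomal proteins 69 rose in LECs, against 3.82% of all genes tested, with a median log2 change of 2.13, and their summed level was 3948, 8576, 23264 and 21840 CPM in LECs and 8004, 16772, 71818 and 58130 CPM in the droplets. Of 12 mitochondrially encoded genes 10 rose, with a median of 2.25 and sums of 491, 820, 2847 and 2924 CPM. The median over all genes tested was 0.01.

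Among genes above the droplets in all mice, Wdr17, which encodes a protein of WD repeats, had the smallest adjusted p of the rises. It stood at 143, 93.2, 1328 and 772 CPM in LECs, and both Tg mice lay far above both WT mice (log2 change 3.21, SE 0.36, edgeR adjusted p = 0.0014). It had a UMI in 38.2%, 28.0%, 81.9% and 73.2% of LEC nuclei. After thinning to 1500 UMIs the shares for Wdr17 were 13.2%, 12%, 67.9% and 48.0%. Blood ECs rose likewise, at 64.5, 71.8, 846 and 574 CPM (log2 change 3.37, adjusted p = 0.0087), and the droplets without a nucleus stood at 32.9, 28.6, 142 and 182 CPM. With the droplet profile subtracted, the change of Wdr17 in LECs was 3.08 (adjusted p = 0.040).

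Lrrc4, which encodes a synaptic ligand of netrin-G2, stood at 21.5, 37.3, 168 and 122 CPM in LECs (log2 change 2.42, SE 0.40, edgeR adjusted p = 0.0061). Lysmd4 rose by 2.07 (SE 0.53, adjusted p = 0.049), at 17.9, 18.6, 95.1 and 50.4 CPM. The other 7 of the 10 largest rises were noncoding, with 1 to 9 UMIs per WT mouse in LECs. They were Gm14211, Gm16599, Gm15261, Pard3bos1, Gm47167, Gm35188 and Gm15614, with log2 changes from 1.90 to 3.51, and each was also called higher in blood ECs of Tg mice. That was common, since 240 of all 315 genes called in LECs were also called in blood ECs. Of the 315, 305 changed in the same direction in blood ECs and 302 in the droplets. The 7 noncoding genes are annotated as antisense or intergenic transcripts, and UMIs they may share with overlapping genes were not resolved here. Without Tg mouse 1 the calls of Lysmd4, Gm14211, Gm47167, Gm35188 and Gm15614 were lost, with Lysmd4 at an adjusted p of 0.68.

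Lower in Tg mice were a pair of interferon-induced GTPases. Iigp1 stood at 236, 144, 30.7 and 61.1 CPM in LECs (log2 change -2.03, SE 0.37, edgeR adjusted p = 0.010), and Gbp5 stood at 64.5, 65.2, 11.7 and 23.4 CPM (-1.84, SE 0.46, adjusted p = 0.047). The droplets without a nucleus also held less of both in Tg mice, at 187, 105, 29.7 and 47.8 CPM for Iigp1 and 44.8, 30.7, 9.76 and 16.5 CPM for Gbp5. Taco1, which encodes an activator of mitochondrial cytochrome oxidase synthesis, stood at 244, 270, 58.5 and 84.5 CPM (-1.78, SE 0.27, adjusted p = 0.0046), and at 330, 222, 75.6 and 84.5 CPM in blood ECs. The call of Gbp5 was lost without WT mouse 1 (adjusted p = 0.054) or Tg mouse 1 (0.30). The share of LEC nuclei with a Taco1 UMI, after thinning, was 20.6%, 22.0%, 9.84% and 6.30%.

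Sema3a, a secreted semaphorin that lymphatic vessels use in the shaping of valves, stood at 759, 638, 298 and 405 CPM in LECs (log2 change -0.93, SE 0.24, edgeR adjusted p = 0.049). It was the 1 of 14 valve and flow genes tested that passed, against 4.23% of all genes tested. In blood ECs Sema3a stood at 192, 242, 113 and 117 CPM, a fall of like size (-0.93, adjusted p = 0.031). The call in LECs was lost without WT mouse 1, Tg mouse 1 or Tg mouse 2, with adjusted p of 0.073, 0.50 and 0.061. The droplets stood at 194, 147, 48.8 and 66.2 CPM. Tc2n, with tandem C2 domains, stood at 724, 517, 236 and 308 CPM in LECs (-1.14, SE 0.25, edgeR adjusted p = 0.026). In blood ECs Tc2n stood at 234, 178, 79.0 and 147 CPM (-0.90, edgeR adjusted p = 0.11). The droplets held 327, 218, 71.6 and 144 CPM of Tc2n, also lower in both Tg mice.

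Gm26917, annotated as a long intergenic noncoding RNA at chr17:39843013-39846341, stood at 720, 433, 195 and 201 CPM in LECs (log2 change -1.49, SE 0.28, edgeR adjusted p = 0.012). Blood ECs fell likewise, at 738, 495, 226 and 235 CPM (-1.45, edgeR adjusted p = 0.027). The droplets stood at 130, 201, 49.6 and 81.1 CPM. UMIs that Gm26917 may share with other transcripts of its locus were not resolved here. The remaining falls of the 10 largest were Mtmr2, a phosphoinositide phosphatase, Ccnyl1, a cyclin, Rab43, a GTPase of membrane traffic, and Pcdh7, described below, with log2 changes from -1.26 to -1.56. Calls of Mtmr2 and Ccnyl1 were lost without WT mouse 1 or Tg mouse 1, and those of Rab43 and Tc2n without Tg mouse 1 (Tc2n also without WT mouse 1). All 20 of these genes kept a level above the droplets in every mouse by the rule that chose them.

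The largest fitted changes of the other genes called all belonged to genes with 0 UMIs in LECs of both WT mice, for which a floor of 3 UMIs per WT library was used. Cacnb4, a calcium channel subunit, was at least 4.15-fold higher in Tg mice, at 77.5 and 25.2 CPM. Fabp1, a fatty acid carrier of liver and gut epithelium, was at least 3.70-fold higher, Gm20528 at least 3.58-fold, Pdap1 at least 3.18-fold and Gm15402 at least 2.49-fold. Without Tg mouse 1 the bounds of Cacnb4 and Gm20528 were 2.04-fold and 2.18-fold, and Fabp1 and Pdap1 did not pass (edgeR adjusted p = 0.51 and 0.45), nor did Pdap1 without Tg mouse 2 (0.11). The droplets without a nucleus were also higher in Tg mice for Fabp1, at 1.25, 15.8, 198 and 89.2 CPM, and for Pdap1, at 7.97, 8.50, 127 and 60.9 CPM, above the LEC level in every mouse. Of the 53 Cacnb4 UMIs of Tg mouse 1, 33 came from 1 nucleus.

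**Figure D4:**
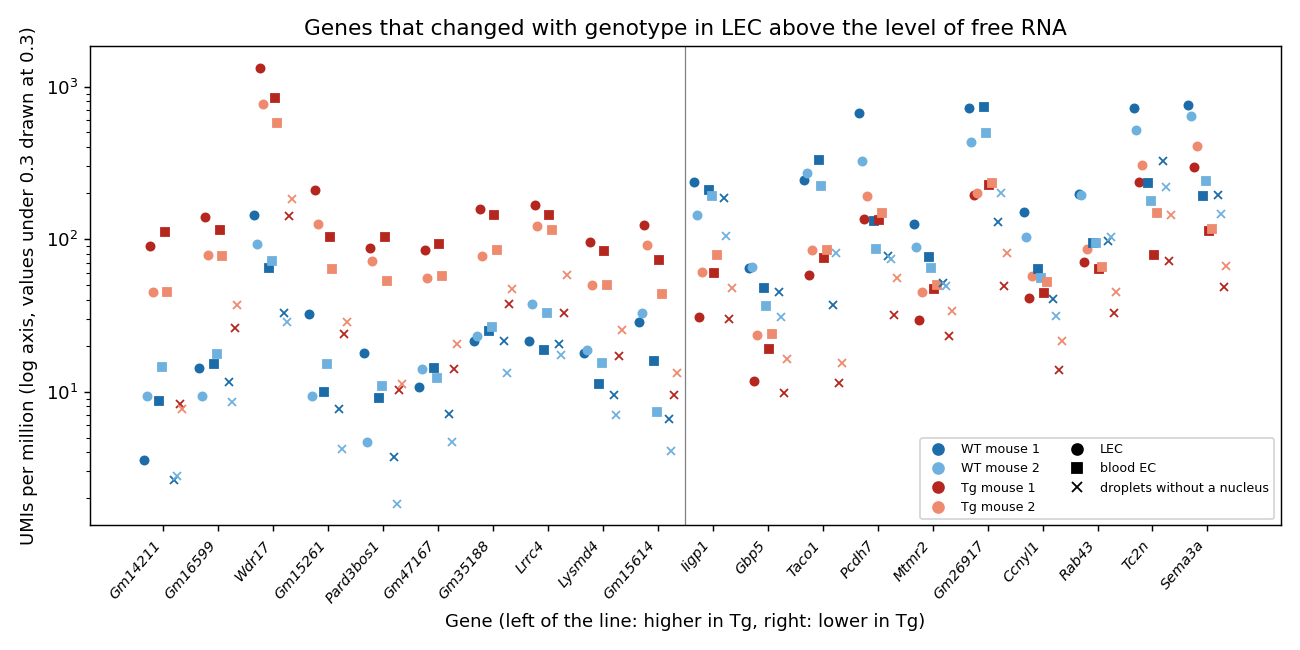
CPM (log axis) in LECs (circles), blood ECs (squares) and droplets without a nucleus (crosses) of each mouse, for 10 genes that rose and 10 that fell most in LECs of Tg mice among those above the droplets in every mouse. WT and Tg circles do not overlap for any of the 20 genes, because only such genes were chosen. Wdr17 lies at 93.2 and 143 in WT and 772 and 1328 in Tg mice.

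In the lists of LEC biology the calls are given beside the 4.23% of all genes tested that passed. Of 10 LEC transcription factors tested none passed, with a median log2 change of -0.05. None of 11 genes of VEGF-C and angiopoietin signaling, 17 of leukocyte traffic or 12 of junctions passed. Nrp2 was lower in both Tg mice without passing the test (log2 change -0.53, SE 0.22, edgeR adjusted p = 0.23), and the share of nuclei with a UMI, after thinning, was 70.6%, 70.0%, 58.5% and 68.5%. Stab2 differed by -0.06 (SE 0.26, adjusted p = 0.93). Tll1, a protease of the matrix, stood at 663, 298, 193 and 239 CPM (-1.11, SE 0.33, adjusted p = 0.086).

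In the list of axon guidance and matrix genes 1 of 23 tested passed. This was Aqp1, a water channel that blood capillaries and red cells carry, at 60.9, 126, 271 and 248 CPM in LECs (log2 change 1.59, SE 0.32, edgeR adjusted p = 0.017). Levels of Aqp1 in blood ECs (54.9, 89.4, 288 and 235 CPM) were close to those in LECs. The droplets stood higher than LECs in all mice but WT mouse 2, at 73.4, 117, 532 and 411 CPM. Among Notch genes 1 of 5 tested passed, namely Hes1, a target of Notch receptors, at 39.4, 41.9, 126 and 101 CPM (1.55, SE 0.35, adjusted p = 0.029). Without WT mouse 1 neither passed (Aqp1 0.063, Hes1 0.056), nor Hes1 without Tg mouse 1 (0.12). The droplets stood at 139, 120, 209 and 187 CPM for Hes1, above the LEC level in every mouse.

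Lists of senescence genes held no call. Of 7 cyclin-dependent kinase inhibitors 2 could be tested and none passed, with a median log2 change of 0.59. Cdkn1a, the p53 target p21, stood at 25.1, 28.0, 35.1 and 61.1 CPM (log2 change 0.90, SE 0.47, edgeR adjusted p = 0.33), and 8.82%, 10.0%, 10.9% and 22.0% of LEC nuclei held a UMI. Of 8 p53 targets and 6 genes of the senescent secretome tested, none passed. Their median log2 changes were 0.08 and 0.70, against 0.01 over all genes tested. An unadjusted edgeR p under 0.05 was found for 2 of the 8 and 3 of the 6, against 1376 of all 7451 genes tested. Igfbp5, an IGF binding protein on the secretome list, stood at 233, 503, 674 and 790 CPM (1.08, SE 0.30, adjusted p = 0.073), against 732 to 2222 CPM in the droplets. The change of Cdkn1a, with 7, 6, 24 and 34 UMIs in LECs, could not be told from the spread between mice.

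Of 5 genes of shelterin and of the transgene's promoter and 10 hypoxia response genes tested, none passed. The hypoxia list had a median log2 change of -0.16. Nor did the 1 cell cycle gene and the 5 immediate early genes tested pass. Mki67, a marker of cycling cells, had a UMI in 3 of 68, 2 of 50, 10 of 193 and 12 of 127 LEC nuclei, which is 4.41%, 4.00%, 5.18% and 9.45%. In blood ECs the shares for Mki67 were 3.07%, 10.99%, 6.33% and 7.88%. The 2 classes gave no common order of the mice.

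Whether the genotype change in LECs differed from that in blood ECs was tested as an interaction with a term for each mouse. Of 13378 genes 66 passed (0.493%), 58 with a more positive and 8 with a more negative change in LECs, and 968 had an unadjusted p under 0.05. Of the 66, 8 lay above the droplets without a nucleus in LECs of all 4 mice. The number fell to 9 without barcodes that also carried markers of other cells, to 2 without the barcodes of highest doublet score, to 7 with free RNA subtracted and to 14 without Tg mouse 1.

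Pcdh7, a protocadherin of cell adhesion, gave the clearest difference. It stood at 666, 326, 135 and 192 CPM in LECs, so that both WT mice lay above both Tg mice (log2 change -1.56, SE 0.33, edgeR adjusted p = 0.022). In blood ECs Pcdh7 stood at 131, 86.2, 134 and 148 CPM (0.34, adjusted p = 0.37). The changes differed by -1.95 (SE 0.22, adjusted p = 1.1e-08), and the difference passed 0.05 under each alternative tried, with values from -1.72 to -2.31. Within LECs alone the fall was -0.96 without WT mouse 1 (adjusted p = 0.051). The highest single nucleus held 38 of 186, 11 of 70, 8 of 92 and 26 of 107 UMIs. The highest 5 nuclei, which were 7.35%, 10%, 2.59% and 3.94% of the nuclei, held 124, 38, 25 and 49 UMIs. Pcdh7 stood at 248, 170, 102 and 114 CPM in the other nuclei. The share of nuclei with a UMI, after thinning to 1500 UMIs, was 25.0%, 28.0%, 14.5% and 17.3%.

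Further genes had a more negative change in LECs, each with limits given here. Nrxn3, a neurexin, stood at 383, 74.5, 101 and 70.1 CPM in LECs (difference of log2 changes -1.75, SE 0.30, edgeR adjusted p = 0.00036), and 92 of its 107 UMIs in WT mouse 1 came from 5 nuclei. Cmah, which makes the sialic acid Neu5Gc, stood at 577, 168, 86.3 and 147 CPM (-1.76, SE 0.29, adjusted p = 0.00024). Kcnn3, a calcium-activated potassium channel, stood at 433, 335, 259 and 250 CPM in LECs and at 23.2, 70.0, 68.7 and 61.6 CPM in blood ECs (-1.23, SE 0.28, adjusted p = 0.014). Outside the highest 5 LEC nuclei of each mouse, WT and Tg mice overlapped for Kcnn3, Nrxn3 and Cmah. There Kcnn3 stood at 264, 220, 232 and 209 CPM, and Nrxn3 at 58.4, 0, 52.8 and 33.45 CPM. Cmah stood there at 341, 40.1, 65.3 and 73.1 CPM. Of the 36 Cmah UMIs of WT mouse 2, 29 came from 5 nuclei. Without WT mouse 1 the differences of Cmah, Kcnn3 and Nrxn3 were -0.54, -0.30 and -1.64 and did not pass (adjusted p = 0.80, 0.87 and 0.28), nor did those of Kcnn3 and Nrxn3 without Tg mouse 1 (0.079 and 0.10). Gm12381 stood at 14.3, 168, 36.6 and 27.0 CPM, with 32 of 36 UMIs of WT mouse 2 in 1 nucleus, and its difference of -1.99 became 0.25 without that mouse.

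The remaining 3 with a more negative change were Thsd7a, Adamtsl1 and Zfp521. Adamtsl1, a secreted matrix protein, stood at 1110, 1095, 480 and 644 CPM in LECs and 452, 642, 412 and 533 CPM in blood ECs (difference -0.77, SE 0.17, edgeR adjusted p = 0.013), and its fall within LECs also passed (-0.91, adjusted p = 0.047). The highest single nucleus held 47 of 310, 64 of 235, 41 of 328 and 30 of 358 Adamtsl1 UMIs, and the highest 5 nuclei held 151, 161, 92 and 107. In the other nuclei Adamtsl1 stood at 630, 432, 362 and 502 CPM, so that WT and Tg mice overlapped. Over all alternatives the difference of Adamtsl1 ran from -0.97 to -0.42. Zfp521, a zinc finger factor, stood at 1182, 778, 590 and 620 CPM in LECs against 128 to 142 CPM in blood ECs (-0.71, SE 0.18, adjusted p = 0.048). Neither difference passed without WT mouse 1, Tg mouse 1 or Tg mouse 2, and that of Thsd7a did not pass without WT mouse 2 or Tg mouse 1.

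The 5 largest positive differences were those of genes with at most 4 UMIs in LECs of the WT mice together. Unc5c, a netrin receptor, had 1, 1, 42 and 38 UMIs in LECs, with 31 and 36 of the Tg UMIs in 5 nuclei each, and stood at 37.2 to 51.2 CPM in blood ECs (difference 4.36, SE 0.66, edgeR adjusted p = 4.5e-05). Cacnb4 had 0, 0, 53 and 14 UMIs. Lmntd1 had 0, 2, 29 and 11 UMIs, Asb14 1, 1, 26 and 14, and Armc4 1, 3, 36 and 17, the last a gene of motile cilia. Without WT mouse 1 or Tg mouse 1 the differences of Lmntd1, Asb14 and Armc4 did not pass, nor did that of Cacnb4 without Tg mouse 1 (adjusted p = 0.067). The summed ciliated markers given above were also highest in LECs of Tg mouse 1. Without the barcodes that carried markers of ciliated or other cells, the differences of Armc4, Lmntd1 and Asb14 were 1.22, 1.52 and 1.32 and did not pass (adjusted p = 0.997 for each). That of Unc5c was then 3.53 (0.37), and without the barcodes of highest doublet score 3.21 (0.77), while Cacnb4 had an adjusted p of 0.96 in both. With free RNA subtracted Unc5c had an adjusted p of 0.059. On the lists, against 0.493% of all genes, 1 of 24 axon guidance and matrix genes and 1 of 10 genes of VEGF-C and angiopoietin signaling passed: the guidance receptor Robo1 (4, 7, 35 and 31 UMIs, difference 1.99, adjusted p = 0.011) and the matrix protein Svep1 (0, 3, 16 and 22 UMIs, difference 2.96, adjusted p = 0.047). Neither passed without WT mouse 1 (adjusted p = 0.14 and 0.60), without Tg mouse 2 (0.055 and 0.37) or without the barcodes of highest doublet score (0.95 and 0.96), nor did Robo1 without Tg mouse 1 (0.093).

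**Figure D5:**
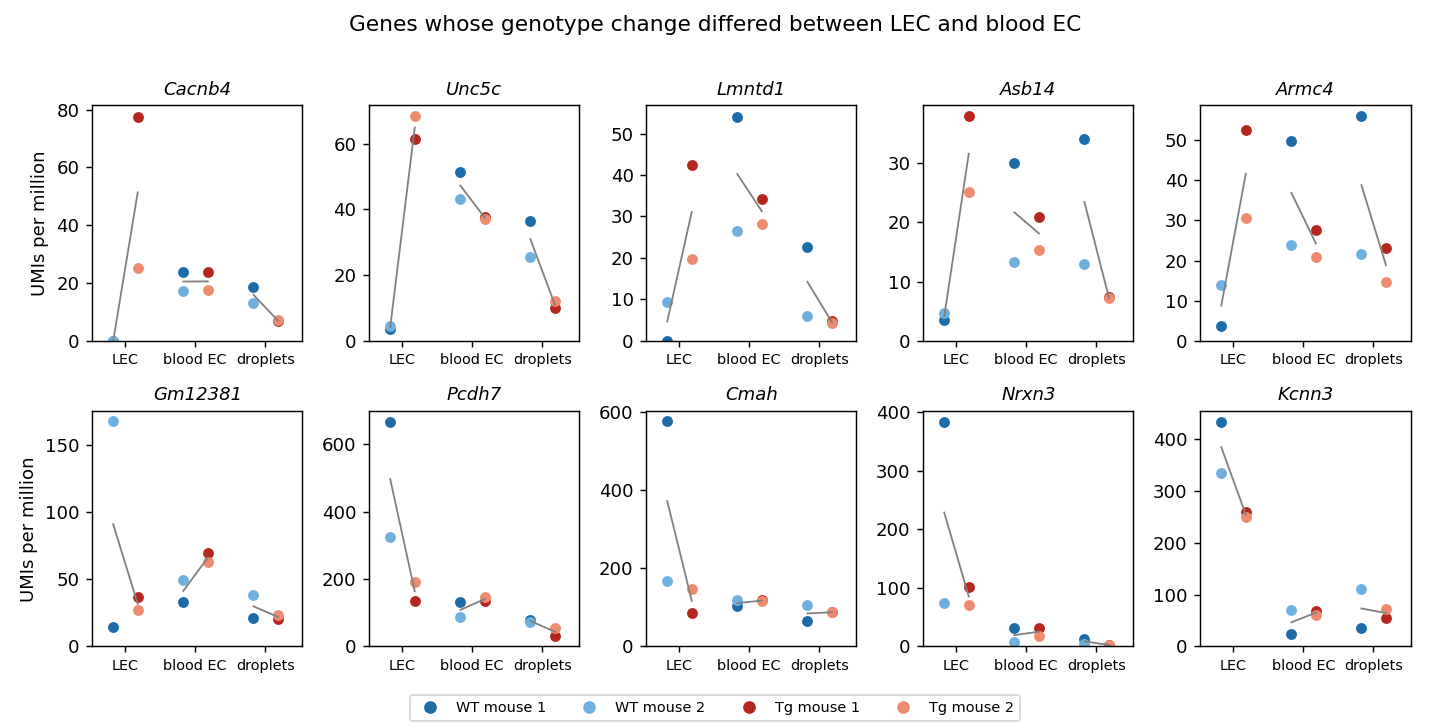
CPM (linear axes, 1 panel per gene) in LECs, blood ECs and droplets without a nucleus of each mouse, for the 5 genes with the most positive and the 5 with the most negative difference of genotype changes, with grey lines joining the means of the 2 WT and the 2 Tg mice. In the Pcdh7 panel the WT mice lie at 326 and 666 and the Tg mice at 135 and 192 in LECs, and all 4 mice lie between 86.2 and 148 in blood ECs.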

How the data were processed

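Per mouse, the authors deposited unfiltered UMI counts of 32285 genes by barcode. The submitters' processing notes name Cell Ranger 6.1.1 and mm10, and the study counted intronic reads. The study's own nucleus filters, decontX correction and batch correction are not part of these files. The members, gene lists, tests and alternatives were chosen with earlier results of these data known.

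Barcodes were chosen by the rule given above and counts summed per mouse and class. Genes passing filterByExpr (min.count 10) were tested with edgeR 4.0.16 (limma 3.58.1, R 4.3.3; TMM, glmQLFit, glmQLFTest, threshold 0.05, Benjamini-Hochberg over all genes tested). The 6 markers and Ptprc received no call, nor, in the interaction, did the 6 blood EC markers. Scripts were tested on simulated data. DESeq2 1.42.0 was an alternative. Shares were compared by exact permutation tests (Python 3.11.15).

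Named genes were those of 15 fixed lists (229 of 230 symbols in the matrices), the 10 largest rises and 10 largest falls among called genes without overlap and above the droplets without a nucleus, the 5 largest other calls, the 20 highest and 10 lowest ratios to blood ECs (10 or more UMIs per mouse in the class where they are high), and the 5 largest interactions each way. 1 of the 20 is not reported here. Genes named outside this rule, namely Thsd7a, Adamtsl1 and Zfp521 and the ribosomal and mitochondrial groups, were chosen after their values were seen. Positions are from GENCODE M21 (GRCm38, equal to mm10). For the alternative with free RNA subtracted, each library's free RNA profile, scaled by the 8 genes of secretory epithelium, was taken off the sums. Intervals are at 95% and cover counting error only. Doublets were not removed in the main counts. Leaving out high cxds scores (a co-expression doublet score) and barcodes with markers of other cells were alternatives. The depth of LECs, 214669 to 683598 UMIs per mouse, limits what can be seen: a gene with 0 UMIs may be at up to 14.0 CPM in WT mouse 2.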

Additional observations from a re-analysis of the deposited data

Results flagged for a closer look

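The genotype change differed between LECs and blood ECs for 66 genes by the edgeR interaction test. The 5 largest positive differences of log2 change were those of Cacnb4 (10.19, a fitted value set by 0 UMIs in LECs of both WT mice), Unc5c (4.36), Lmntd1 (3.38), Asb14 (3.30) and Armc4 (3.04). The 5 largest negative differences were those of Gm12381 (-1.99), Pcdh7 (-1.95), Cmah (-1.76), Nrxn3 (-1.75) and Kcnn3 (-1.23).

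The comparisons did not use 248 barcodes that met the marker and UMI terms but held over 1 Ptprc UMI. They numbered 25, 67, 60 and 96 in WT mouse 1, WT mouse 2, Tg mouse 1 and Tg mouse 2. Their levels of the marker genes and of Ptprc were set by this choice. Of genes outside the terms, Nrp2 stood at 880, 815, 544 and 619 CPM and Stab2 at 367, 378, 256 and 252 CPM in them. Their median depth was 3943, 6748, 4806 and 6076 UMIs, above that of the members in every mouse.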

How the results depend on the processing

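The 315 genotype calls became 139 with DESeq2, 683 when genes of low count were kept (the median change of all genes then moved to 0.29), 648 with the replicate number as a block and 4 with free RNA subtracted, and ran from 217 (without Tg mouse 1) to 800 (without WT mouse 2) with 1 mouse left out, where a lone mouse is assumed to vary like the others. The numbers do not pair the mice in the labels, and deviations of same-numbered mice correlated at r = 0.086 over genes. Of the 25 genes named by size of change, 11 passed with DESeq2, 14 of 19 tested with 6 UMIs from 4 markers, 15 of 21 without high cxds scores, 1 (Wdr17) of 21 with free RNA subtracted (where Lrrc4, not called, was at 2.51 and Taco1 at -1.93) and 9 (of 22 tested, without Tg mouse 1) to 25 with 1 mouse left out. The 66 interaction calls became 105 with 6 UMIs from 4 markers, 103 with a minimum of 1000 UMIs, 9 without barcodes with markers of other cells, 2 without high cxds scores and 7 with free RNA subtracted, and 14 to 124 with 1 mouse left out (36 without WT mouse 1, 124 without WT mouse 2, 14 without Tg mouse 1, 86 without Tg mouse 2). Leaving out barcodes with markers of other cells, the share among barcodes with at most 1 Ptprc UMI, and the cxds alternative for interactions were chosen after seeing the data. Gm12381 reversed, to 0.25 without WT mouse 2 and 0.50 with 6 UMIs from 4 markers, and ran from -2.81 to 0.25 with 1 mouse left out. The difference in the LEC share of barcodes kept its sign, at 0.154 with a minimum of 2500 UMIs, and ran from 0.0975 to 0.573 with 1 mouse left out. The difference in the share of LECs plus blood ECs reversed to -0.0807 with a minimum of 2500 UMIs and to -0.375 with barcodes thinned to 1500 UMIs, and ran from -0.211 to 3.21 with 1 mouse left out. The 74 genes at least 4-fold above blood ECs ran from 78 to 91 with 1 mouse left out and from 67 to 108 over all alternatives. With 1 mouse left out the excess was required only in the mice kept. That count could therefore hardly fall, and its range does not measure stability. Over all settings, 443 of 598 single-gene values kept their direction and their side of the threshold, 153 lost significance and 2 reversed. The cause was not tested, except that fewer genes are tested after subtraction. Leaving out members that pass the marker rule of any other class was not run, since all 438 pass one.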

Other observations

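The median member held 10, 9, 8 and 9 marker UMIs, which the rule used, with maxima of 72, 37, 37 and 45, and members with all 6 markers numbered 3, 0, 9 and 4. Nuclei with at least 1 UMI each of Prox1, Mmrn1 and Reln numbered 43 of 68, 28 of 50, 88 of 193 and 67 of 127. Of the members, 45.6%, 48.0%, 30.6% and 50.4% also met the marker rule of blood ECs. Kdr, one of those markers, is also a receptor of LECs, and stood at 204, 252, 190 and 234 CPM in LECs and 152, 182, 140 and 201 CPM in blood ECs.

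B cell markers as a group stood at 724, 699, 410 and 549 CPM in LECs and at 211 to 436 CPM in blood ECs. Mrc1, a mannose receptor of macrophages and lymphatic endothelium, stood at 355, 503, 430 and 507 CPM in LECs and at 179, 358, 228 and 300.5 CPM in blood ECs.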
